A study of Mus musculus with 26 samples.

Results

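MHC class II antigen presentation was examined through 5 genes, chosen by symbol: Cd74, H2-Aa, H2-Ab1, H2-Eb1 and Ciita. They were looked up in the deposited RNA-seq tables of mouse striatum, which list 14833 genes in at least 1 of the 5 tables. Of the 5 genes, 4 had a value in each of the 5 tables and were followed in all of them, while Ciita was not analysed here.

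The 26 libraries were made from total RNA of striatum and form 9 groups. R6/1 mice, which carry a transgene with the first exon of human huntingtin, and wild-type mice were sampled at 4 weeks and at 8 weeks, with 3 libraries a group. CHL2 mice, a huntingtin knock-in line, and wild-type mice were sampled at 1 year of age, also with 3 libraries a group. The other 3 groups were given an adeno-associated virus (AAV) and sampled at 10 weeks. Control AAV was given to wild-type mice (2 libraries) and to R6/1 mice (2 libraries), and Elk-1 AAV to R6/1 mice only (4 libraries). The group names in the tables give the control vector as mCherry. Elk-1 is a transcription factor that acts with serum response factor on activity-induced genes. Not given in the sources used here are the strains, the route and time of injection, the promoters of the vectors and any pooling of animals. The first 6 groups carry no AAV in their labels, so virus, age and table cannot be told apart when the 10-week groups are set beside them.

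Class II molecules are dimers of an alpha and a beta chain that show peptides from the endosome to CD4+ T cells. Their invariant chain, encoded by Cd74, fills the groove of new dimers and is cut away by endosomal proteases before peptide loading. The chains and Cd74 are switched on together by the coactivator CIITA, which is recruited to a conserved promoter module and is itself induced by interferon gamma. In healthy brain tissue the molecules are scarce and are carried mainly by macrophages at the borders of the brain and, after activation, by microglia.

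The module is made of an X box, bound by RFX and by CREB family proteins, and a Y box, bound by NF-Y. Because the chain genes are known to share this module, and all 4 measured members fell together in the control-AAV table only, the promoters of H2-Aa and H2-Eb1 are printed from RefSeq on GRCm38.p6, which is not the mm9 build of the tables. These were the 2 members with an entry in the promoter table. Each stretch is written 5′ to 3′ in the direction of its gene. Capitals mark GCAAC (the core of an RFX half-site), TGACGTCA (the cAMP response element) and ATTGG or CCAAT (the NF-Y core on either strand).

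H2-Aa, chr17:34287837-34287934, minus strand: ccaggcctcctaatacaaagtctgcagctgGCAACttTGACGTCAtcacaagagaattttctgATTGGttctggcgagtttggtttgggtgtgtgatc

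H2-Eb1, chr17:34305746-34305842, plus strand: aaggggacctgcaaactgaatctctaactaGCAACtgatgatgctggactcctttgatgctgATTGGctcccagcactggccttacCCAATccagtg

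In H2-Aa the GCAAC begins 81 bases before the listed transcript start, and ATTGG follows after 28 bases. In H2-Eb1 it begins 91 bases before the start, with 27 bases to ATTGG. The same arrangement, GCAAC and then ATTGG at a distance of 15 to 40 bases in the direction of the gene, was found in the 250 bases before the start of 152 of 27025 genes (0.562%). That distance was set after both sequences were seen. By themselves the motifs are common: CCAAT on either strand was present in 34.5% and GCAAC on either strand in 30.1% of these promoters, while TGACGTCA, which reads the same on both strands, was present in 1.62%. Of the other class II genes, H2-Oa (28 bases), H2-Ob (25 bases) and H2-Eb2 (27 bases) held the arrangement. The listed starts of H2-DMa, H2-DMb1 and H2-DMb2 did not have these letters in this order and distance. The ETS motif CCGGAAGT, which Elk-1 can bind, was absent on both strands from the same windows of H2-Aa and H2-Eb1 and present in 2.93% of promoters. These are matches of letters and not measured binding.

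The authors' deposited tables give 1 FPKM (fragments scaled to transcript length and library size) per gene and group, pooled over its libraries, without separate values for the libraries. Depth per library, the spread between libraries and hence an SD are unknown here. Because FPKM is per length, levels of different genes can be set side by side. The tables also hold the authors' own test, and the words rose and fell are kept for genes with a q below 0.05 in that test. Tables were normalised separately, so a level in one table was not tested against a level in another. The control-AAV R6/1 pool stands in 2 tables, and over 12608 genes its FPKM differed between them by a median factor of 1.02. The tissue label was checked with 12 genes of striatal projection neurons, all of which had values in every table, with a summed FPKM between 1239.5 and 3655 per group.

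Class II transcripts were scarce in striatum without AAV. Cd74 stood at an FPKM of 2.09 in wild type and 2.05 in R6/1 at 4 weeks, 1.94 and 3.33 at 8 weeks, and 2.65 in wild type and 4.59 in CHL2 at 1 year. The alpha chain gene H2-Aa stood at 0.596 and 0.511, at 0.734 and 1.19, and at 1.07 and 1.78 in the same order. The beta chain genes were at similar levels: H2-Ab1 between 0.442 and 1.14 and H2-Eb1 between 0.453 and 1.26. Cd74 was the most abundant of the 4 in each of these 6 groups, at 2.49 to 4.01 times the level of H2-Aa. The order of the chain genes below it differed between groups, and their levels lay close together. These chain levels lie near the edge of what the tables list, since the larger of a gene's 2 group values was at least 0.408 at 4 weeks, 0.458 at 8 weeks and 0.502 at 1 year for every gene listed.

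The 3 AAV groups stood far higher. In control-AAV wild type Cd74 reached an FPKM of 102.7, H2-Aa 51.7, H2-Ab1 45.5 and H2-Eb1 10.5. In control-AAV R6/1 they were at 18.2, 12.6, 7.70 and 3.62. In Elk-1-AAV R6/1 they were at 41.9, 20.0, 14.5 and 4.60. For each of the 4 genes the lowest AAV group was above the highest group without AAV, by 3.97 times for Cd74, 7.07 for H2-Aa, 6.77 for H2-Ab1 and 2.87 for H2-Eb1. The order Cd74, H2-Aa, H2-Ab1, H2-Eb1 was the same in all 3 AAV groups. H2-Eb1 made up 12.7% to 17.6% of the summed FPKM of the 4 genes in the groups without AAV and 5.01% to 8.60% in the AAV groups. Class II genes are polymorphic, and the H2 haplotype of the mice is not given in the sources used here, so chain levels may depend on how well their reads align to mm9. These levels come from separately normalised tables, and no sample joins the groups with and without AAV in 1 comparison, so this difference was not tested.

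**Figure D1:**
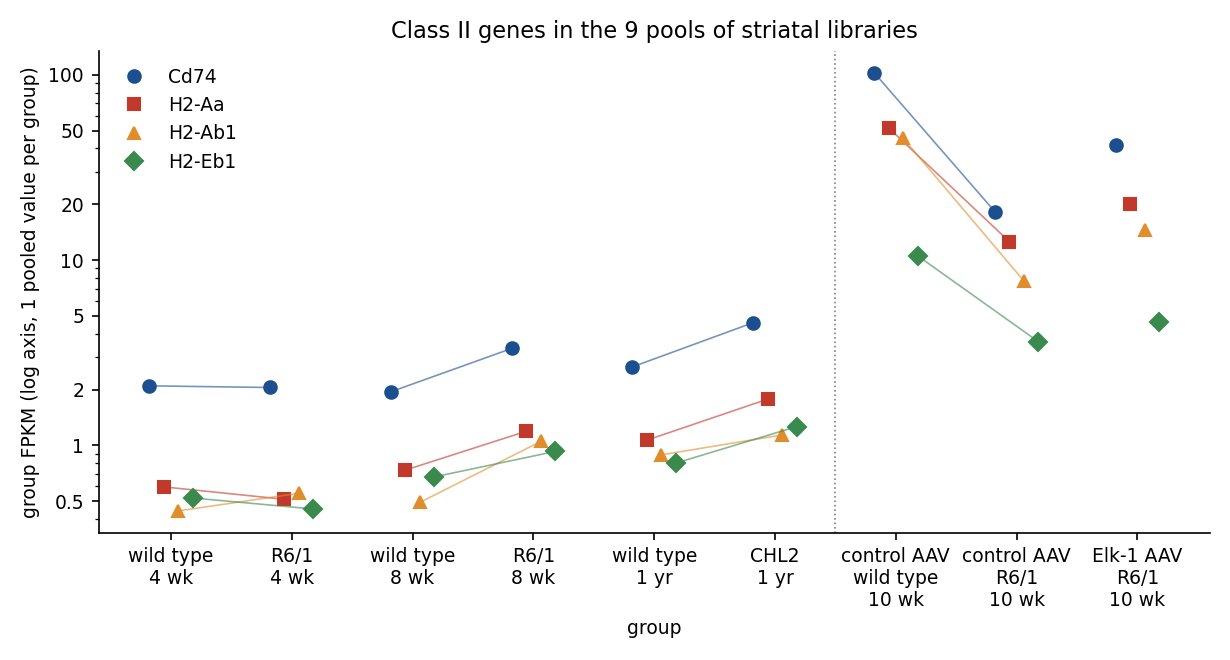
Group FPKM (log axis) of Cd74, H2-Aa, H2-Ab1 and H2-Eb1 in the 9 groups, 1 pooled value per group with no error bar because no value per library exists; lines join the 2 groups of a genotype comparison, and the dotted line separates groups without and with AAV. The AAV groups lie above the others for each gene, from 18.2 to 102.7 for Cd74 against 1.94 to 4.59.

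Levels were thus read mainly within each table, beginning with the untreated R6/1 mice. The authors' deposited 4-week table, for which the submitters' notes name Cuffdiff, called 0 of the 4 class II genes between R6/1 and wild type and 0.468% of its 14539 genes. None had an unadjusted p below 0.05 either, against 5.36% of all genes. Their log2 fold changes were -0.03 for Cd74, -0.22 for H2-Aa, 0.32 for H2-Ab1 and -0.20 for H2-Eb1, with q = 0.999 for each, by the authors' deposited table. The median log2(FPKM + 1) change of the 4 was -0.042, beside 0.0011 over all genes. Of the 4 values, 3 were lower and 1 was higher in R6/1.

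At 8 weeks all 4 values were higher in R6/1, and none passed. H2-Ab1 went from 0.491 to 1.05 (log2 fold change 1.09, q = 0.220, by the authors' deposited table). Cd74 went from 1.94 to 3.33 (0.78, q = 0.158), H2-Aa from 0.734 to 1.19 (0.70, q = 0.592) and H2-Eb1 from 0.675 to 0.926 (0.46, q = 0.773), by the authors' deposited table. With 0 of 4 called, the table's background was 6.12% of 14320 genes. Cd74 (p = 0.0146) and H2-Ab1 (p = 0.0238) had an unadjusted p below 0.05, by the authors' deposited table, as did 14.3% of all genes. The median log2(FPKM + 1) change of the 4 was 0.40, beside 0.0053 over all genes, and in the ranking of deposited log2 fold changes H2-Ab1 was 43rd and Cd74 120th from the top of 14301.

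In CHL2 striatum at 1 year Cd74 rose, and the 3 chain genes had higher values that did not pass. Cd74 went from 2.65 to 4.59, 1.73 times higher (log2 fold change 0.79, q = 0.0466, by the authors' deposited table), just inside the threshold. H2-Aa went from 1.07 to 1.78 (0.74, q = 0.320), H2-Eb1 from 0.802 to 1.26 (0.65, q = 0.372) and H2-Ab1 from 0.888 to 1.14 (0.36, q = 0.805), by the authors' deposited table. One of 4 was thus called higher, where 1.67% of 14402 genes were. At an unadjusted p below 0.05, 3 of 4 were higher, as were 6.75% of all genes, and at q below 0.01 the counts were 0 of 4 and 0.951%. The median log2(FPKM + 1) change was 0.38, beside 0.0023 over all genes.

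In the control-AAV groups the direction was the opposite one: all 4 class II genes fell in R6/1 against wild type. Cd74 went from 102.7 to 18.2, which is 5.63 times lower (log2 fold change -2.49, q = 0.00312, by the authors' deposited table). H2-Ab1 went from 45.5 to 7.70 and was 5.90 times lower (-2.56, q = 0.00312), and H2-Aa from 51.7 to 12.6, 4.11 times lower (-2.04, q = 0.00312), by the authors' deposited table. H2-Eb1, the least abundant, went from 10.5 to 3.62, 2.91 times lower (-1.54, q = 0.0203, by the authors' deposited table). Lower calls made up 2.51% of 12980 genes in this table. The median log2(FPKM + 1) change of the 4 was -2.19, beside 0.014 over all genes. The first 3 of these q-values are the lowest that the table holds. Among 12960 ranked genes, H2-Ab1 had the 30th, Cd74 the 36th, H2-Aa the 53rd and H2-Eb1 the 108th most negative log2 fold change. In wild type Cd74 was the 836th most abundant gene of the table, and in R6/1 the 4870th. Each of these groups has 2 libraries, whose separate values are unknown here.

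With Elk-1 AAV in place of control AAV, all 4 values in R6/1 were higher and 1 rose. Cd74 went from 18.7 to 41.9, 2.24 times higher (log2 fold change 1.16, q = 0.0122, by the authors' deposited table, the lowest q it holds). H2-Ab1 went from 7.89 to 14.5 (0.87, q = 0.518), H2-Aa from 12.9 to 20.0 (0.64, q = 0.858) and H2-Eb1 from 3.71 to 4.60 (0.31, q = 0.999), by the authors' deposited table. Higher calls made up 0.299% of 12701 genes. At an unadjusted p below 0.05, 3 of 4 were higher, as were 2.61% of all genes, and no gene of the table had a q below 0.01 and a higher value. The median log2(FPKM + 1) change of the 4 was 0.70, beside 0.013 over all genes. This comparison and the previous one share the control-AAV R6/1 pool, so a low value in that pool would lower one and raise the other. Side by side, the Cd74 values of the 3 groups were 102.7, 18.2 (18.7 in the second table) and 41.9. Those of H2-Eb1 were 10.5, 3.62 (3.71) and 4.60. Whether the changes differ between the comparisons of this series was not tested, since values per library are needed for it.

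**Figure D2:**
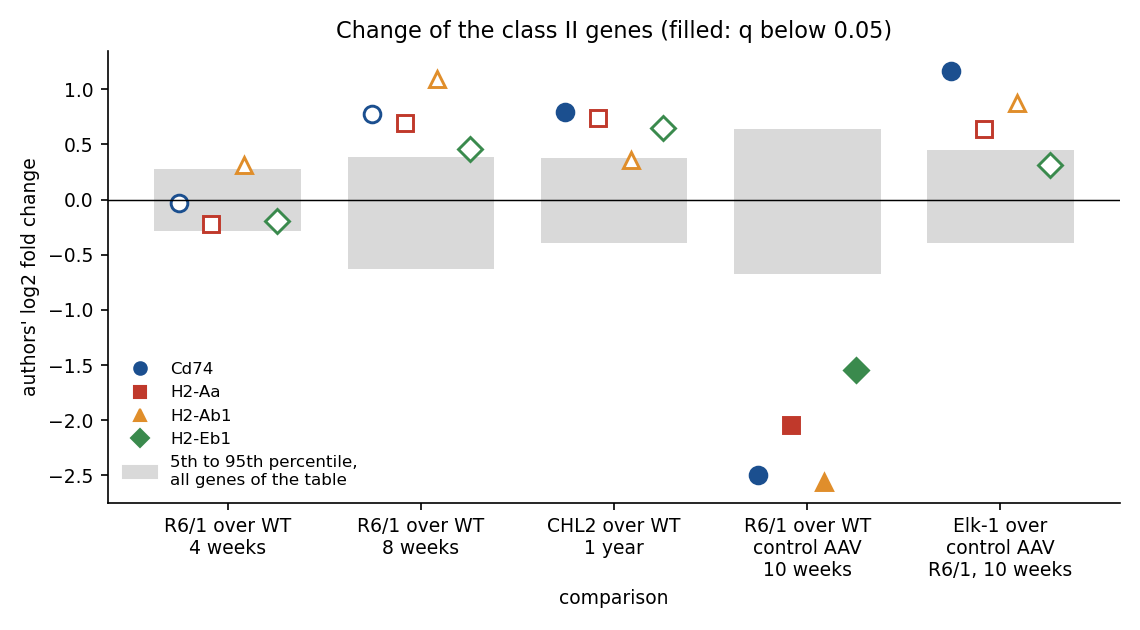
The authors' log2 fold change of the 4 class II genes in each comparison, filled where q was below 0.05; grey bands span the 5th to 95th percentile of all genes in that table. The 4 filled symbols in the control-AAV comparison lie between -2.56 and -1.54, and the filled symbols for CHL2 and for Elk-1 AAV are both Cd74 (0.79 and 1.16).

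Accessory genes of the pathway were read against the share of all genes called in either direction, which was 0.468% and 6.12% for R6/1 at 4 and 8 weeks. It was 3.65% for CHL2, 3.24% for the control-AAV comparison and 0.575% for Elk-1 AAV. With 4 to 8 genes in a list, a single call was read for that gene alone and not as a result about the list. Of 7 further class II chain and peptide editor genes, 4 had values in at least 1 table, and none was called in any table. H2-DMa, a chain of the DM editor that removes the invariant chain fragment, was at 10.4 to 24.1 in all groups and stood at 8.78 to 29.7 times the level of H2-Aa in the groups without AAV. In control-AAV wild type it was at 0.466 times the level of H2-Aa. H2-DMa stood at 24.1 in control-AAV wild type and 11.6 in control-AAV R6/1 (log2 fold change -1.05, q = 0.110, by the authors' deposited table). Under Elk-1 AAV it stood at 11.9 and 18.9 (0.67, q = 0.948, by the authors' deposited table). Its partner H2-DMb1 stayed between 0.943 and 2.99 in all groups.

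All 8 genes of endosomal processing and class II turnover had values in each table. Ctss, the protease that makes the last cut in the invariant chain, rose from 74.5 to 123.1 under Elk-1 AAV (log2 fold change 0.73, q = 0.0122, by the authors' deposited table). It was at 108.0 and 72.7 in control-AAV wild type and R6/1 (-0.57, q = 0.128, by the authors' deposited table). March1, a ligase that marks class II molecules for removal from the surface, rose in CHL2 from 6.69 to 9.27 (log2 fold change 0.47, q = 0.0251, by the authors' deposited table). No gene of this list was called in the other 3 tables. The abundant proteases Ctsd (206 to 442) and Ctsb (130 to 205) were called in no table.

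The 7 factors that bind the class II promoter module, among them Rfx5, Rfxap, Rfxank and the NF-Y subunits, gave 0 calls in all 5 tables. Their median log2(FPKM + 1) changes lay between 0.033 and 0.18. Rfxap stood at 18.7 and 21.3 and Nfyb at 22.4 and 17.5 in control-AAV wild type and R6/1. Upstream, the interferon gamma pathway was represented by 7 of 8 genes, while Ifng was not analysed here. In the control-AAV comparison 1 of the 7 was called, 3 values were lower (Irf1, Irf8 and Socs1) and 4 were higher (Ifngr1, Ifngr2, Jak1 and Jak2), with a median log2(FPKM + 1) change of 0.023. No gene of the 7 was called in the other 4 tables. Irf1, which acts on the Ciita promoter, fell from 6.86 to 2.30 in the control-AAV comparison (-1.57, q = 0.0135) and stood at 2.36 and 4.81 under Elk-1 AAV (1.03, q = 0.469), by the authors' deposited tables. In CHL2, where Cd74 rose, Irf1 stood at 3.48 and 3.66 (0.07, q = 0.958, by the authors' deposited table) and was not called.

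MHC class I, the other antigen presentation pathway, was compared because it also responds to interferon. In the control-AAV comparison 5 of its 9 genes with values fell: H2-D1, H2-K1, B2m, Tap1 and Psmb9 (median log2(FPKM + 1) change -0.97). Lower calls made up 2.51% of all genes in that comparison. Under Elk-1 AAV 3 rose, H2-D1, H2-K1 and B2m (median 1.20), where 0.299% of all genes rose. H2-D1 was at 125.4 in control-AAV wild type, 56.6 in control-AAV R6/1 and 180.3 in Elk-1-AAV R6/1, so its Elk-1-AAV value exceeded its wild-type value, while the Cd74 value did not. At 8 weeks 1 of the 9 rose, H2-D1, from 16.4 to 25.6 (log2 fold change 0.64, q = 0.00160, by the authors' deposited table). Calls in either direction made up 6.12% of all genes at that age. All 9 values were higher there (median 0.29), as were the 4 class II values. An unadjusted p below 0.05 was reached by 4 of the 9, beside 14.3% of all genes in either direction. In CHL2 0 of the 9 class I genes were called, with 0 at an unadjusted p below 0.05, and 8 had lower values (median -0.16), whereas the 4 class II values were higher. Whether class I and class II changes differ was not tested.

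**Figure D3:**
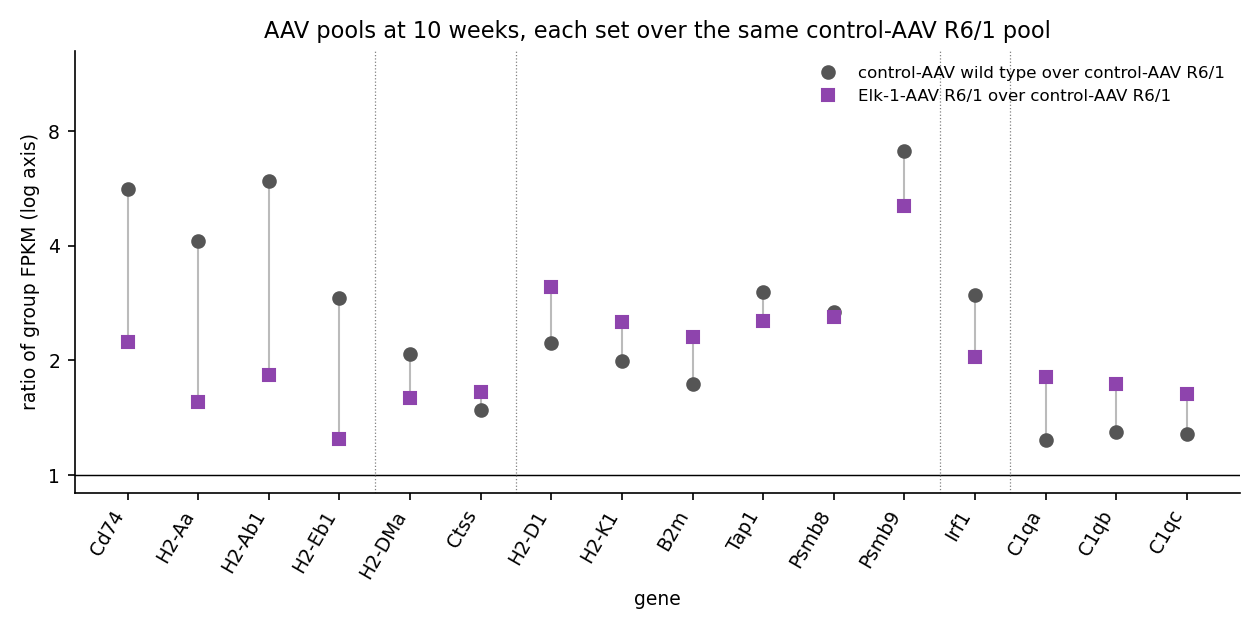
Ratio of group FPKM (log axis) over the control-AAV R6/1 pool for the class II genes and selected genes of other lists. Selected were H2-DMa, Ctss, H2-D1, H2-K1, B2m, Tap1, Psmb8, Psmb9, Irf1, C1qa, C1qb and C1qc. Other genes of those lists are not shown, and some, such as March8, Ifngr2 and Tmem119, had higher values in control-AAV R6/1 than in wild type. Grey circles show control-AAV wild type and purple squares Elk-1-AAV R6/1, each over the value of the shared pool in its own table. For Cd74 the ratios are 5.63 and 2.24, and both ratios of a gene rest on the same 2 control-AAV R6/1 libraries.

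The genes H2-Ab1 (34400171 to 34406363), H2-Aa (34419695 to 34424716) and H2-Eb1 (34442811 to 34453619) lie next to each other on chromosome 17, within 53448 bases, and Cd74 lies on chromosome 18 (60963502 to 60972306; positions as listed in the tables on mm9). No other row of the tables overlapped any of the 4. Within 200 kb of the chromosome 17 group, 11 other genes had values in the control-AAV table, and 2 of them fell, as did 2.51% of all genes. These were Psmb9, an immunoproteasome subunit, from 12.7 to 1.78 (log2 fold change -2.83, q = 0.0300), and the peptide transporter gene Tap1, from 4.86 to 1.60 (-1.60, q = 0.0327), by the authors' deposited table. All but Brd2, Col11a2 and BC051142 also belong to the class I list or the class II chain and editor list above. Of the 11 neighbours 10 had lower values, with a median log2(FPKM + 1) change of -0.41, while 52.4% of all genes had higher values. The larger of a gene's 2 values was at least 1.10 for every gene listed. H2-Oa and BC051142 were thus listed through their wild-type value alone, and their lower values in R6/1 carry little weight. The uncalled ones ranged from H2-Oa (2.56 and 0.127) and Psmb8 (12.6 and 4.71, q = 0.0602, by the authors' deposited table) to Brd2 (58.3 and 55.9) and Col11a2 (5.40 and 5.48). Under Elk-1 AAV 9 neighbours had values, none was called, and their median change was 0.53. BC051142 was listed there through its Elk-1-AAV value alone. In CHL2, where the class II values were higher, 10 of 11 neighbours had lower values and none was called. Of all genes, 50.6% had higher values in CHL2.

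Microglia can carry class II, and their markers were read beside it. Of 16 microglial genes, 0 were called at 4 weeks, at 8 weeks, in CHL2 and between the control-AAV groups, by the authors' deposited tables. At an unadjusted p below 0.05 there were 1, 0, 5 and 0, all lower in the mutant mice. In either direction 5.36% of all genes reached that p at 4 weeks and 14.3% at 8 weeks. The share of all genes lower at that p was not computed for CHL2 or control AAV. The 5 in CHL2 are thus not read as a result about the list. Between control-AAV wild type and R6/1 the summed FPKM of these 16 genes was 551.7 and 467.9, which is 1.18 times lower, against 4.99 times lower for the 4 class II genes. In CHL2 the microglial sum was 553.7 in wild type and 474.4 in CHL2, with 16 of 16 values lower, while all 4 class II values were higher. Under Elk-1 AAV the 3 chains of complement C1q (C1qa, C1qb and C1qc) rose, all 16 values were higher, and the sum went from 479.1 to 742.3. The part of microglial number or state in the Elk-1-AAV change of Cd74 was not tested. In bulk tissue, fewer cells of a type and less RNA per cell cannot be told apart.

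Other cells that could carry class II had values for few of their markers. Of 13 markers of border macrophages and monocytes 7 had values in some table, with a sum between 11.9 and 27.7 in each group, and Mrc1, Lyve1, Ms4a7 and Ccr2 were not analysed here. That sum was 18.2 in control-AAV wild type and 20.1 in control-AAV R6/1, with 0 genes called. Of the 6 genes in it, 5 had higher values in R6/1, where class II fell, and Plac8 had a lower one (3.01 and 0.308). Under Elk-1 AAV, where Cd74 rose, the sum without Plac8 was 20.3 and 27.7, with all 5 values higher and 0 called. Dendritic cell markers had values for 4 of 10 genes (sum 10.4 to 15.4, 0 called in any table). Of 8 T-cell genes 2 had values, Lck and Zap70, both at or under 2.28, and for 8 B-cell genes no value was used. Cd4, which encodes the T-cell coreceptor for class II, was nevertheless at 5.50 to 24.8. It fell in R6/1 at 8 weeks (24.8 to 9.40), in CHL2 (20.2 to 12.7) and in control-AAV R6/1 (14.2 to 5.50), with q = 0.00160, 0.00303 and 0.00312 by the authors' deposited tables. Projection neuron genes fell in those comparisons too, with 11, 12 and 10 of 12 genes called lower.

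Markers of neighbouring tissue also differed between the pools. Choroid plexus genes, summed over 9, went from 349.8 in control-AAV wild type to 1597 in control-AAV R6/1, with 4 of 9 called higher, while class II fell. Ttr alone gave 333.4 and 1547 of these sums, and 3.24% of all genes were called in either direction. At 8 weeks the same sum went from 1538 to 595.4, with 7 called lower, while the 4 class II values were higher without passing. Under Elk-1 AAV the choroid plexus genes ran with class II: all 9 values were higher (sum 1635 to 2326), and Kl was called. Meningeal and fibroblast genes had values for 10 genes, and Dcn and Igf2 rose in control-AAV R6/1 (sum 35.9 to 81.5). Dcn and Fmod rose in CHL2 (sum 26.5 to 41.1), where Cd74 also rose. In R6/1 at 8 weeks Fmod and Aldh1a2 rose and Igf2 fell, with 9 of 10 values higher (sum 39.7 to 36.9). Under Elk-1 AAV 8 of 10 meningeal values were lower and none was called. Of these, Lum and Col3a1 were listed through their control-AAV value alone, the larger value being at least 1.26 for every gene listed. An unadjusted p below 0.05 was reached by 6, but the share of all genes lower at that p was not computed. Dcn, a matrix proteoglycan gene, went from 4.41 to 13.9 in CHL2 (log2 fold change 1.65, q = 0.00303, by the authors' deposited table). The part of tissue composition in the class II changes was not tested. Markers of vessel wall cells were called in no AAV or CHL2 comparison. At 8 weeks 1 of 12 was called, Acta2, which rose from 5.61 to 11.7 (log2 fold change 1.06, q = 0.00160, by the authors' deposited table). Blood genes had values for 5 of 7 in CHL2, where 4 values were lower and 1 was higher (sum 72.3 to 33.9). Hbb-b1 and Alas2 fell there, and no blood gene was called in another comparison.

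**Figure D4:**
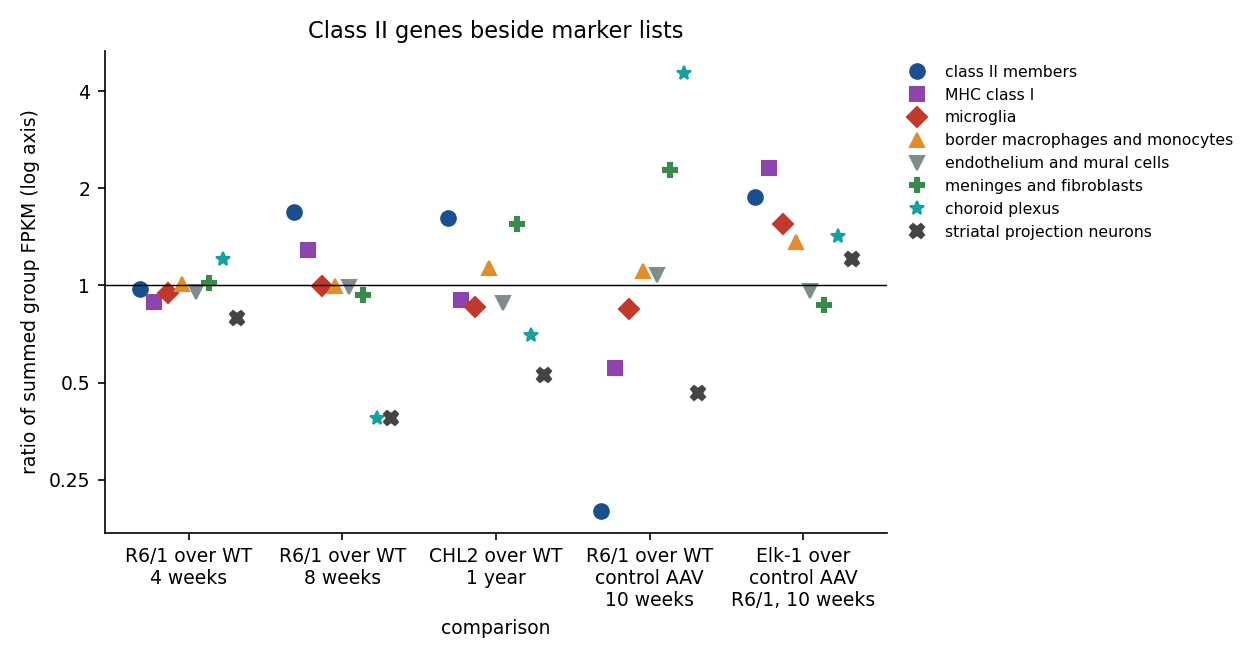
Ratio of summed group FPKM (log axis) of the class II genes and 7 other lists in each comparison; 1 symbol per list, each sum over the genes with values in that table. In the control-AAV comparison the class II sum stands at 0.200 and the microglial sum at 0.848, and in CHL2 they stand at 1.62 and 0.857.

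The genes whose levels followed the class II mean most closely over the 9 groups were ranked by Pearson correlation of log2(FPKM + 1), among 12528 genes listed in all 5 tables at a mean FPKM of at least 1. The first 5 were Pitpna (0.993), Jdp2 (0.993), Sept6 (0.990), Pstk (0.989) and BC048546 (0.988). They share the separation of groups with and without AAV, and none of the 5 was called in any table. Pitpna, a phosphatidylinositol transfer protein gene, ran only from 74.4 to 108.6. The 9 points share tables, ages and the AAV design, and these correlations are descriptions only. The correlation was 0.52 for the class II editor gene H2-DMa and 0.94 for the class I gene H2-D1, and the 4 members correlated at 0.997 to 0.999 with the mean that contains them.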

How the data were processed

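Striatal RNA was sequenced after a TruSeq preparation, per the labels' protocols. TopHat, Bowtie, Cufflinks, Cuffdiff and mm9 are named without versions in the submitters' processing notes; strandedness and annotation were not given in the sources used here. Deposited by the authors were 5 tables with 1 pooled FPKM per group and gene, a log2 fold change of these values, a test statistic (a score of their program), and p-values and q-values. The q-values equal a Benjamini-Hochberg adjustment over each table, recomputed here. Depth per library is unknown, so no interval, SD or new test could be computed; the limma fits foreseen for values per library were not run. Nothing states that libraries of a group are separate animals, so the deposited p-values may reflect technical spread alone.

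Calls are the deposited q below 0.05. Changes of lists were computed as log2(FPKM + 1), which understates changes of low genes. Sums, ratios and ranks used Python 3.11.15 and pandas 2.3.3. Simulated or planted values tested only the Benjamini-Hochberg adjustment, the ranking by correlation and the median change of a list. RefSeq promoters (GRCm38.p6) were searched on both strands, using the first listed start of each gene for the shares. Named were the members, called genes and the 2 most abundant genes of 17 lists where a result turns on them, and the 5 genes most like the members. Members and lists were chosen with earlier results of these data known. Reads shared with related H2 genes may be split uncertainly. One gene of the interferon gamma list is not reported here.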

Additional observations from a re-analysis of the deposited data

How the results depend on the processing

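The settings tried were a pseudocount of 0.1, centring on the median of all genes, and the deposited log2 fold change with no pseudocount. The last was added after the data were seen. A pseudocount and the deposited fold change rest on the same 2 group values, so neither can reverse a direction. Centring shifted values by 0.0143 or less and reversed no class II value. Size depended on the pseudocount for low genes: of 60 member values under these settings, 18 moved by more than 1.5 times. With a pseudocount of 0.1 the median change of the members was -0.096 at 4 weeks, 0.69 at 8 weeks and 0.64 in CHL2. With a q threshold of 0.01, 0 members were called in CHL2 and 0 under Elk-1 AAV, where higher calls made up 0.951% and 0.0% of all genes. At an unadjusted p below 0.05, 2 were called at 8 weeks, 3 in CHL2 and 3 under Elk-1 AAV, beside 14.3% of all genes in either direction and 6.75% and 2.61% higher. In the control-AAV comparison the count stayed within 1.5 times of 4 at each threshold. Leaving out single libraries was not run, because the tables hold pooled values. No paired analysis was possible because the tables carry no column per library.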
